A study of Mus musculus with 6 samples.

Results

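The core autophagy genes, which encode the proteins that build, load and deliver the autophagosome, were examined in newborn mouse lenses with a conditional deletion of Celf1. They were chosen as a list of 48 genes by known function and matched by gene symbol, and 47 of them were found among the 13931 genes of the expression table. The remaining listed gene, Map1lc3b, was not analysed here. All 47 genes passed an average level of 1 on the log2 CPM scale (reads scaled to library size, on a log2 scale), and their reads per library ran from 214 for Atg10 to 34961 for Sqstm1, so each of the 47 was transcribed in this tissue.

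RNA-sequencing was done on whole lenses at postnatal day 0 (P0), with 3 control and 3 Celf1cKO libraries, each from a pool of lenses. Celf1 encodes an RNA-binding protein that controls the splicing, decay and translation of its target mRNAs. The Celf1cKO lenses carried one floxed Celf1 allele, one germline lacZKI allele and the Pax6GFPCre transgene, whose Pax6 regulatory region drives Cre in the surface ectoderm that forms the lens, on a mixed C57BL/6 and FVB background. The controls are labelled Celf1lacZKI/+, which would mean that both groups share a germline lacZKI allele, whereas the methods of the study name floxed mice without Cre as the usual control, so the control genotype was not settled. The study describes no pairing of libraries across the groups.

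The libraries held 40694454 to 44387151 reads on genes, and 3 reads, the lowest level counted as detected, corresponded to 0.0609 to 0.0807 CPM. Celf1 itself read 9.95, 9.94 and 9.34 log2 CPM in controls and 8.93, 7.66 and 7.83 in Celf1cKO lenses, so the groups did not overlap and Celf1cKO library 1 was the nearest to the controls (log2 fold-change -1.60, SE 0.335, limma adjusted p = 0.0269). The 16 crystallin genes took 45.8 to 46.9% of reads in controls and 34.7 to 38.5% in Celf1cKO lenses. The summed level of the 6 lens epithelium markers was 590 to 620 CPM in controls and 180 to 492 CPM in Celf1cKO lenses, lowest in Celf1cKO library 2, with 4 of the 6 lower in every Celf1cKO library and none at 0. The 9 vessel and mesenchyme markers summed to 93.7 to 114 CPM and 40.4 to 109 CPM. Markers of other tissues were low in both groups, at 0.726 to 16.7 CPM and 1.23 to 9.18 CPM for 3 of 8 retina markers, 3.66 to 22.5 CPM and 7.27 to 27.7 CPM for 6 of 7 pigment cell markers, and 3.15 to 8.51 CPM and 3.87 to 6.72 CPM for 5 of 9 macrophage and blood markers. Of the lens fiber markers, 9 of 10 were in the table and 6 of those were lower in every Celf1cKO library, and of the 10 cornea and skin epithelium markers 1 was in the table, Perp, at 21.4 to 23.0 CPM in controls and 29.2 to 33.4 CPM in Celf1cKO lenses (log2 fold-change 0.46, limma adjusted p = 0.0300). In whole lenses, fewer cells of a type and less RNA per cell cannot be told apart, and the part that these differences play in the levels of autophagy genes was not tested.

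Autophagy encloses cytoplasm in a double membrane and delivers it to the lysosome. The ULK1 kinase complex starts the process, a class III PI3-kinase marks the site with a phospholipid, and ATG9 vesicles and lipid transfer proteins feed the growing membrane, which is called the phagophore. A pair of ubiquitin-like conjugation systems then attaches ATG8 proteins to the membrane, where they hold cargo receptors and later recruit the machinery that fuses the autophagosome with the lysosome. In the lens, fiber cells lose their nuclei and other organelles as they mature, lens-specific loss of Atg5 or Pik3c3 in mice impairs lens transparency, and mutations of the human FYCO1 and EPG5 genes cause disorders that include cataract.

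Of the 47 core autophagy genes, 6 were called differentially expressed, namely 5 elevated (Sqstm1, Ulk1, Atg5, Atg2b and Tmem41b) and 1 reduced (Atg9a) in Celf1cKO lenses. To be called, a gene needed an adjusted p-value under 0.05 by limma, a difference of more than 0.58 on the log2 scale in either direction, and a mean level above 1 log2 CPM. The 6 called genes were 12.8% of the 47, beside 7.39% of all 13931 genes and 9.68% of the 10640 genes whose mean level was above 1 log2 CPM. By direction, the 5 elevated genes were 10.6% of the 47 beside 4.77% of all genes, and the single reduced gene was 2.13% beside 2.63%. Among the 10640 genes above 1 log2 CPM, 664 were called elevated and 366 reduced. With the adjusted p-value alone, 8 genes passed, 6 higher and 2 lower, which is 17.0% beside 11.9% of all genes. Of the 10640 genes above 1 log2 CPM, a closer match to the members, 1550 passed. An unadjusted limma p-value under 0.05 was reached by 18 of the 47. The same was true of 4171 of all 13931 genes and of 3618 of the 10640 above 1 log2 CPM. The roles described below hold 4 to 10 genes each, too few for a count within a role to be read against these shares.

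The direction of the differences was spread across the list. The log2 fold-change was above 0 for 30 genes and below 0 for 17, with a median of 0.0864 beside -0.0352 over all genes and 0.00415 over the 10640 genes above that level. All 3 Celf1cKO libraries lay above all 3 controls for 16 genes (34.0%), beside 19.5% of all genes, and below them for 5 genes (10.6%), beside 17.0%. Of the 10640 genes, 2457 were apart in this way with Celf1cKO higher and 1803 with Celf1cKO lower. The 39 genes that did not pass the adjusted p-value ran from -0.67 to 0.54 on the log2 scale, and 23 of them were within 0.25 of 0. The split by direction depended on how the libraries were scaled: with libraries scaled by their total reads, which moves the median of all genes above the expression threshold to 0.229, 10 members were called elevated and none reduced. Over all 13931 genes that scaling gave 1663 elevated and 204 reduced. No gene on the list was called in the fits that left out Control 2 or Celf1cKO 3, where 1 gene was called in the whole table, and 1 of the 47, Sqstm1, was called without Control 3, without Celf1cKO 2 or without the variance trend. The same 6 genes were called by voom on the recovered reads.

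**Figure D1:**
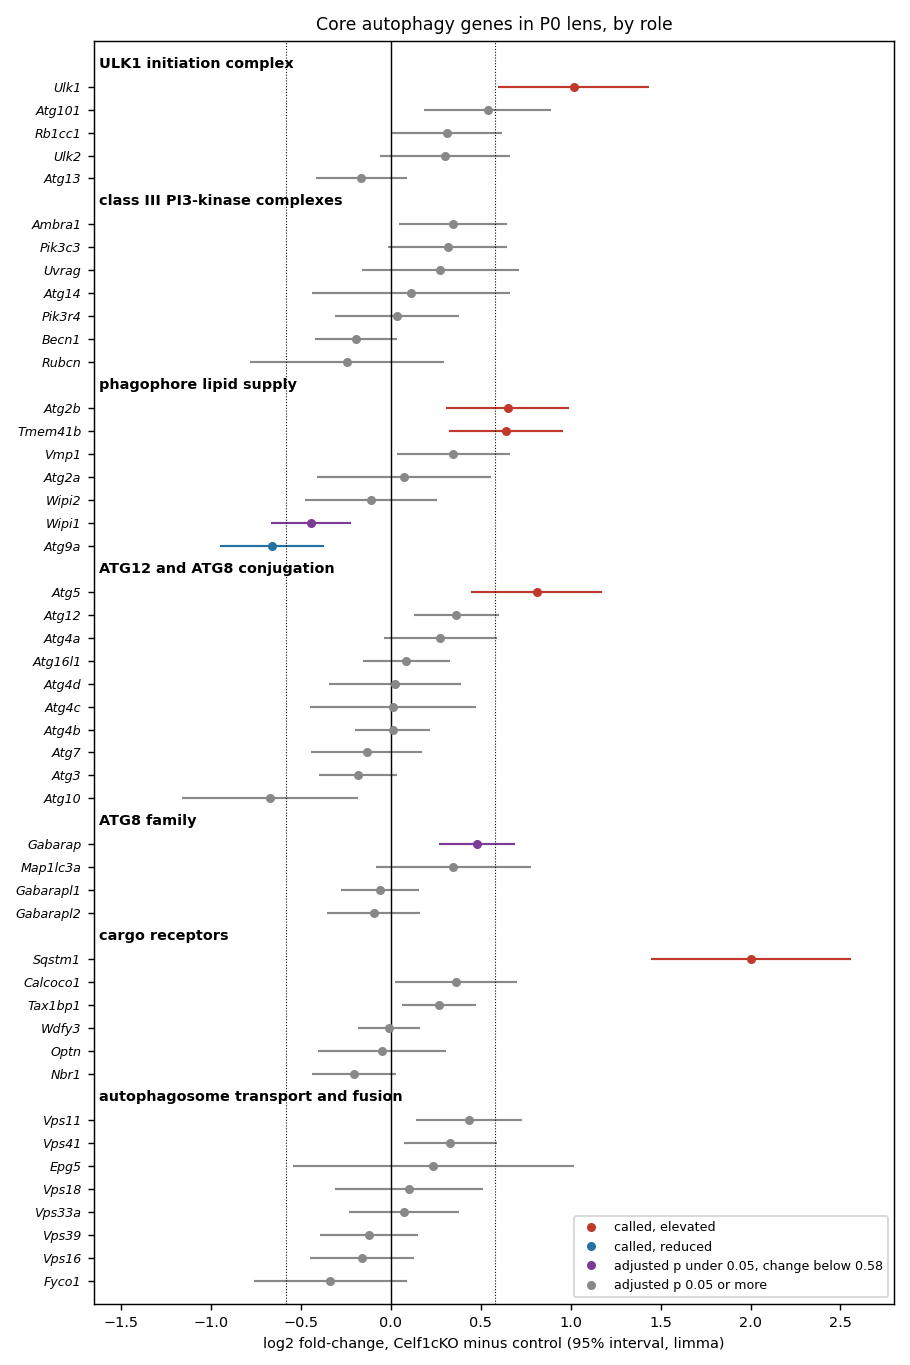
The log2 fold-change (Celf1cKO minus control, 3 libraries each) is plotted on the horizontal axis for each of the 47 core autophagy genes, grouped by role, with bars for the 95% interval from limma and dotted lines at 0.58 in either direction. Sqstm1 lies apart from the rest at 2.0, and the other called genes lie between -0.66 and 1.02.

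**Figure D2:**
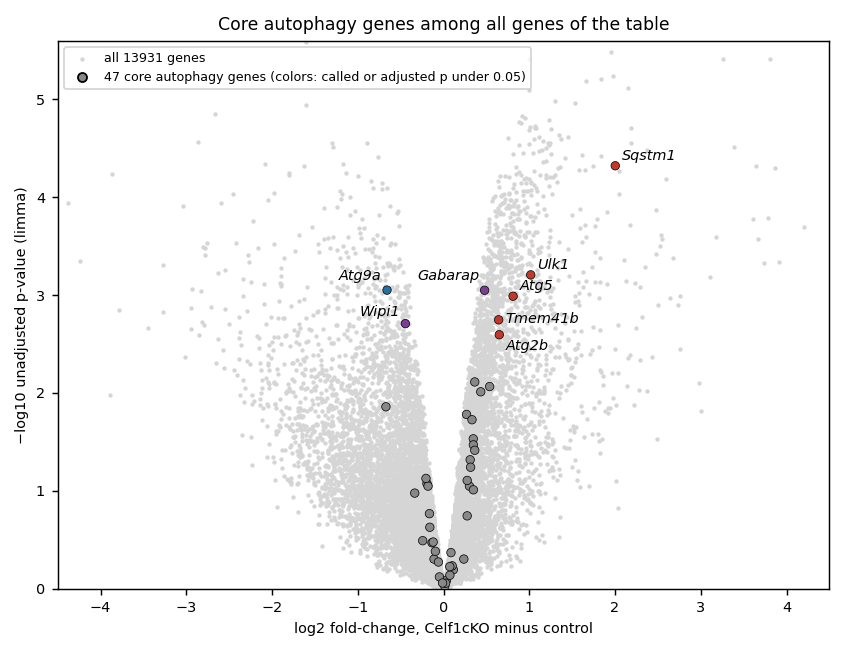
The log2 fold-change is plotted against -log10 of the unadjusted limma p-value for all genes (pale grey, with 8 genes outside the plotted range) and for the 47 core autophagy genes (outlined, with the 8 that had an adjusted p-value under 0.05 named). Sqstm1 lies at 2.0, to the right of all other members, which lie between -0.67 and 1.02.

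Sqstm1 showed the largest difference among the members. It encodes p62, a receptor that binds ubiquitinated cargo and ATG8 proteins and is itself degraded by autophagy, and it lies on the minus strand at chr11:50199366-50210827 (GRCm38). Its level was 7.06, 6.96 and 6.94 log2 CPM in controls and 8.43, 9.49 and 9.04 in Celf1cKO lenses. Every Celf1cKO library was well above every control, and the Celf1cKO libraries were spread more widely (SD 0.533, n = 3) than the controls (SD 0.0625, n = 3). The log2 fold-change was 2.0 (SE 0.238, limma adjusted p = 0.00940), a 4.01-fold higher level. The library with the highest Sqstm1, Celf1cKO 2, also had the lowest Celf1 level (7.66 log2 CPM) and the lowest crystallin share (34.7%). Its sums of lens epithelium markers (180 CPM) and of vessel and mesenchyme markers (40.4 CPM) were the lowest as well. A link of Sqstm1 to any of these was not tested. The call held in 4 of the 6 fits with 1 library left out. Without Celf1cKO 3 the log2 fold-change of Sqstm1 was 1.98 (limma adjusted p = 0.0607), and without Control 2 it was 1.99 (limma adjusted p = 0.0512). In each of these fits only 1 gene of the whole table was called. Exons of Sqstm1 share 580 bases, or 17.3% of their length, with Mrnip on the opposite strand, whose level was 2.51 log2 CPM in controls and 2.58 in Celf1cKO lenses.

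The other cargo receptors were not called. Nbr1, which shares the domain plan of p62, was slightly lower in every Celf1cKO library (log2 fold-change -0.21, adjusted p = 0.210 by limma). Tax1bp1, a receptor of ubiquitinated cargo, was at 0.27 (adjusted p = 0.0878 by limma) and Calcoco1, a receptor for parts of the endoplasmic reticulum, at 0.36 (adjusted p = 0.142 by limma), both higher in every Celf1cKO library. Optn, which binds ubiquitinated mitochondria and bacteria, was at -0.05, and Wdfy3, a large scaffold for aggregated protein, was at -0.01 with the narrowest Celf1cKO spread of any member (SD 0.0183, n = 3). Within the same library, per base of exon, Sqstm1 exceeded Nbr1 by 0.54, 0.20 and 0.51 log2 units in controls and by 2.06, 3.10 and 2.72 in Celf1cKO lenses, a measure that library scaling cannot alter.

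**Figure D3:**
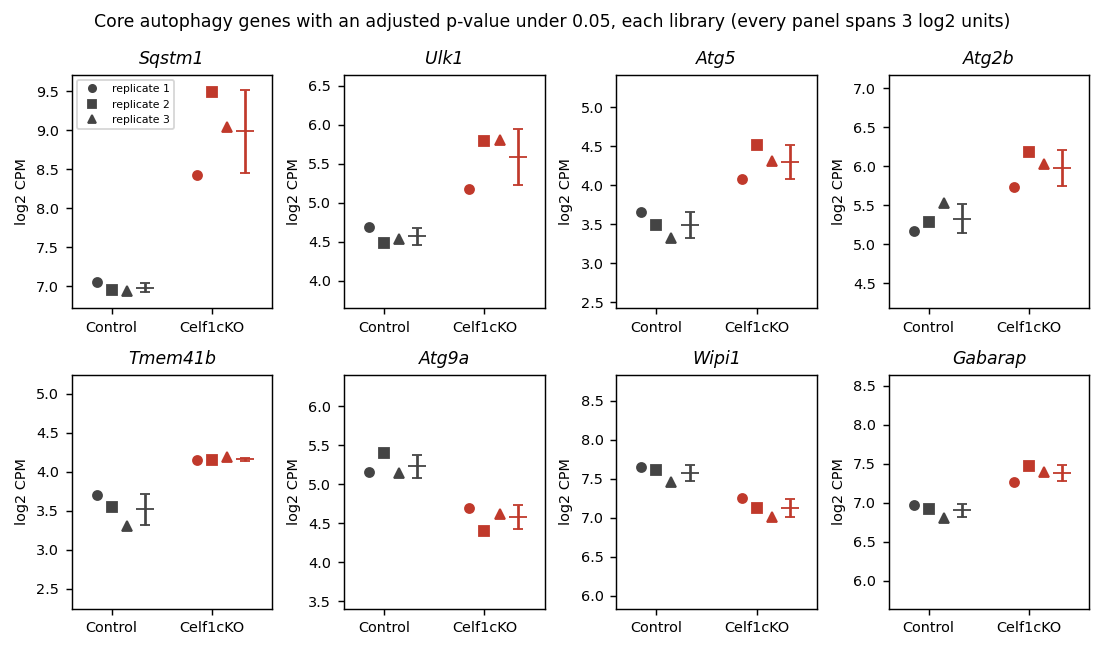
The log2 CPM of each library is plotted for the 8 core autophagy genes with an adjusted p-value under 0.05, with the replicate number as the symbol and a bar for the mean and SD of the 3 libraries at the right of each group. Every panel spans the same number of log2 units, and in none of the 8 panels do the groups overlap.

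Of the 5 genes of the ULK1 initiation complex, 1 was called. Ulk1, the kinase that starts autophagosome formation, read 4.69, 4.48 and 4.54 log2 CPM in controls and 5.17, 5.79 and 5.80 in Celf1cKO lenses. The groups were apart, and Celf1cKO library 1 was again the nearest to the controls. The log2 fold-change was 1.02 (SE 0.179, limma adjusted p = 0.0174), a 2.02-fold higher level. Ulk1 lies on the minus strand at chr5:110784488-110810097. The call ended without a variance trend (limma adjusted p = 0.0526) and in 4 of the 6 fits that left out a library, with adjusted p-values up to 0.0857. Its related kinase Ulk2 was not called (0.30, limma adjusted p = 0.236). Per base of exon, the log2 difference Ulk1 minus Ulk2 was -0.65, -1.14 and -0.87 in the controls and -0.28, -0.21 and -0.04 in the Celf1cKO libraries, so Ulk1 was nearer to Ulk2 in each of the latter. Atg101, a small partner that steadies Atg13, was at 0.54 (adjusted p = 0.0618 by limma) and the scaffold Rb1cc1, also known as FIP200, was at 0.31 (adjusted p = 0.163 by limma), both higher in every Celf1cKO library. Atg13, which links the kinase to the scaffold, was at -0.16.

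None of the 7 genes of the class III PI3-kinase complexes was called by limma, beside 9.68% of all genes over the level threshold, or by voom. An unadjusted limma p-value under 0.05 was reached by 1 of them, beside 4171 of all 13931 genes. The catalytic subunit Pik3c3 was at 0.32, its regulatory subunit Pik3r4 at 0.03 and their shared partner Becn1 at -0.19 on the log2 fold-change scale. Atg14, which directs the complex to the site of phagophore formation, was at 0.11, and Uvrag, which takes its place in the endosomal complex, at 0.28. Ambra1, a scaffold of Becn1 and ULK1, was at 0.35 and was the only one of the 7 higher in every Celf1cKO library (limma adjusted p = 0.122). Rubcn, an inhibitor of the endosomal complex, was at -0.24, with controls spread from 4.84 to 5.78 log2 CPM. Becn1 shares 43.9% of its exon length with Cntd1 on the opposite strand.

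Of the 7 genes of phagophore lipid supply, 3 were called, in both directions, beside 9.68% of all genes over the level threshold, and no difference from the other groups was tested. Atg2b, which encodes a lipid transfer protein that bridges the endoplasmic reticulum and the phagophore, read 5.18, 5.28 and 5.54 log2 CPM in controls and 5.73, 6.18 and 6.03 in Celf1cKO lenses (log2 fold-change 0.65, SE 0.146, limma adjusted p = 0.0328). Tmem41b, a lipid scramblase of the endoplasmic reticulum, read 3.71, 3.55 and 3.30 in controls and 4.15, 4.15 and 4.18 in Celf1cKO lenses (0.64, SE 0.135, limma adjusted p = 0.0275). For both genes the groups were apart, and the 3 Celf1cKO libraries of Tmem41b were nearly level (SD 0.0199, n = 3). Vmp1, another scramblase of this group, was at 0.35 (limma adjusted p = 0.133) and Atg2a, the paralog of Atg2b, at 0.07. Atg2b exceeded Atg2a per base of exon by 0.56, 0.30 and 0.73 log2 units in controls and by 1.30, 1.09 and 0.92 in Celf1cKO lenses. Atg2b was called in 1 of the 6 fits with a library left out and Tmem41b in 2, with adjusted p-values up to 0.131 and 0.126, and quantile normalization put Atg2b at 0.57, below the threshold in size. Atg2b lies at chr12:105616136-105685211 and Tmem41b at chr7:109972187-109986929, both on the minus strand.

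Atg9a was the only core autophagy gene called reduced. It encodes the transmembrane scramblase of the vesicles that seed the phagophore, and it read 5.15, 5.41 and 5.15 log2 CPM in controls and 4.70, 4.41 and 4.63 in Celf1cKO lenses. Every Celf1cKO library was below every control, and the log2 fold-change was -0.66 (SE 0.123, limma adjusted p = 0.0196). With libraries scaled by total reads the log2 fold-change was -0.43 (limma adjusted p = 0.0298), below the threshold in size, and the call held in 1 of the 6 fits with a library left out. Atg9a lies on the minus strand at chr1:75180860-75192196, and 31.8% of its exon length is shared with Gm29253 on the same strand. Wipi1, which reads the phospholipid made by the PI3-kinase, was lower in every Celf1cKO library as well, at 7.65, 7.61 and 7.45 in controls and 7.25, 7.12 and 7.01 in Celf1cKO lenses (-0.45, SE 0.0953, limma adjusted p = 0.0288), a difference below the threshold in size. Its relative Wipi2, which recruits the conjugation machinery, was at -0.11.

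Atg5 was the only called gene among the 10 of ATG12 and ATG8 conjugation. It encodes the acceptor of Atg12 and lies on the plus strand at chr10:44268358-44364291. Its level was 3.66, 3.49 and 3.33 log2 CPM in controls and 4.08, 4.52 and 4.31 in Celf1cKO lenses, with the groups apart. The log2 fold-change was 0.81 (SE 0.155, limma adjusted p = 0.0208), a 1.75-fold higher level, and the call held in 2 of the 6 fits with a library left out. Its conjugation partner Atg12 was higher in every Celf1cKO library at 0.36, with a limma adjusted p of 0.0579 and of 0.0475 with the replicate block. Atg16l1, which joins them in the complex that places ATG8 proteins on the membrane, was at 0.09.

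None of the enzymes of the 2 conjugation systems was called. Atg7, the shared activating enzyme, was at -0.13, and Atg3, the conjugating enzyme for ATG8 proteins, at -0.18. Atg10, the conjugating enzyme for Atg12, read 3.03, 3.24 and 2.90 log2 CPM in controls and 2.77, 2.15 and 2.23 in Celf1cKO lenses. All 3 Celf1cKO values of Atg10 were below the controls, but the difference did not pass the test (-0.67, SE 0.210, limma adjusted p = 0.0796). The proteases that prepare and release ATG8 proteins lay close to 0 for Atg4b (0.01), Atg4c (0.01) and Atg4d (0.02), and Atg4a was at 0.28 (limma adjusted p = 0.216), higher in every Celf1cKO library.

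None of the 4 ATG8 family genes analysed was called, and 1 of them passed the adjusted p-value. Gabarap read 6.97, 6.92 and 6.80 log2 CPM in controls and 7.27, 7.47 and 7.39 in Celf1cKO lenses. All Celf1cKO libraries were higher, and the log2 fold-change of 0.48 (SE 0.0895, limma adjusted p = 0.0196) was below the threshold in size, which it passed with scaling by total reads (0.70). Gabarapl1 read 7.54, 7.66 and 7.70 in controls and 7.50, 7.71 and 7.51 in Celf1cKO lenses, with the groups interleaved (-0.06, SE 0.0920, limma adjusted p = 0.702). Gabarapl2 read 5.36, 5.38 and 5.13 in controls and 5.25, 5.27 and 5.06 in Celf1cKO lenses (-0.10, SE 0.111, limma adjusted p = 0.602). Map1lc3a, which encodes one of the LC3 proteins, read 3.19, 2.87 and 2.70 in controls and 3.46, 3.06 and 3.29 in Celf1cKO lenses (0.35, SE 0.184, limma adjusted p = 0.247), and its groups overlapped. Gabarapl1 shares 28.3% of its exon length with a transcript on the opposite strand.

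The order of the ATG8 genes by level per length was led by Gabarapl1, at 98.8 CPM per kb of exon in controls, followed by Gabarap at 64.8, Gabarapl2 at 16.8 and Map1lc3a at 6.43. In Celf1cKO lenses the first pair was nearly level, with Gabarapl1 at 94.9 and Gabarap at 90.3 CPM per kb. Within libraries, the log2 difference Gabarap minus Gabarapl1 per base was -0.44, -0.62 and -0.77 in controls and -0.11, -0.11 and 0.0062 in Celf1cKO lenses. The difference Gabarapl2 minus Gabarapl1 ran from -2.78 to -2.39 in controls and from -2.66 to -2.46 in Celf1cKO lenses, and the groups overlapped.

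Such within-library differences were computed for 8 pairs of related genes, picked after their values had been seen. The groups did not overlap for 5 of the 8 pairs, which were Sqstm1 and Nbr1, Ulk1 and Ulk2, Atg2b and Atg2a, Gabarap and Gabarapl1, and Atg4a and Atg4b. For each of these 5 the two-sided exact permutation p was 0.10, the smallest that 3 libraries against 3 can give, and 0.16 after Benjamini-Hochberg adjustment over the 8 pairs. The test could not reach 0.05 in this design, so these differences are a description, and they do not show which gene of a pair changed.

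Per length, the members spanned a wide range of levels. In controls Gabarapl1 was followed by Gabarap, Wipi1 at 43.2 and Sqstm1 at 37.8 CPM per kb, and the lowest was Atg4d at 0.891. In Celf1cKO lenses Sqstm1 was the highest of the 47 genes, at 158 CPM per kb. The levels of Ulk1 (3.67 and 7.55 CPM per kb) and Atg5 (4.79 and 8.44) were far below that of Sqstm1 in both groups.

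**Figure D4:**
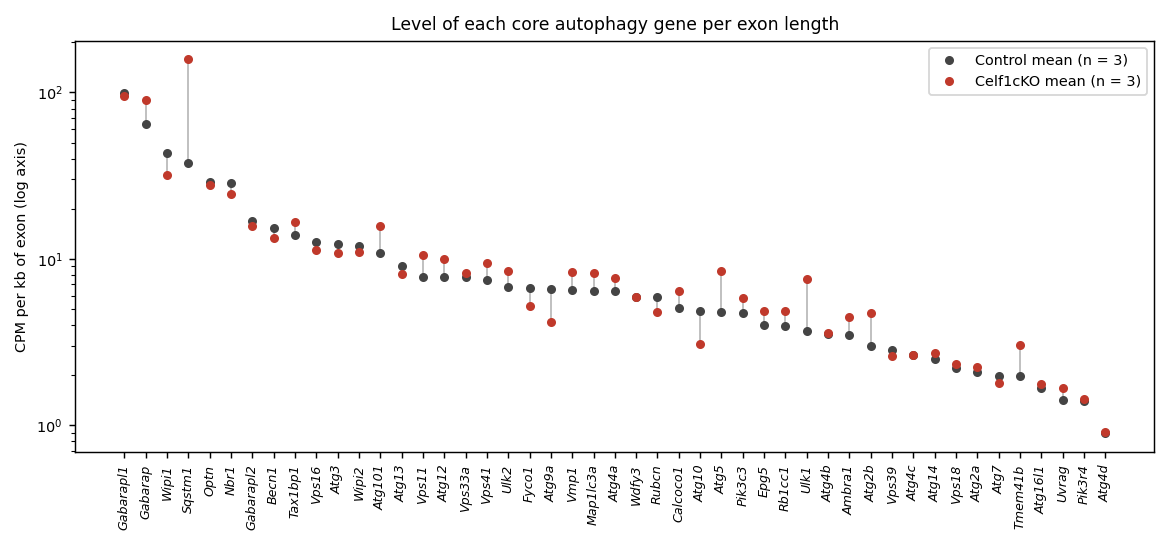
The mean level of each of the 47 core autophagy genes is plotted in CPM per kb of exon on a log axis for controls and Celf1cKO lenses (3 libraries each), in order of the control level. Sqstm1 moves from the fourth place to the first, and Gabarapl1, Gabarap and Wipi1 follow it in Celf1cKO lenses.

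None of the 8 genes of autophagosome transport and fusion was called by limma, beside 9.68% of all genes over the level threshold, or by voom. An unadjusted limma p-value under 0.05 was reached by 2 of them, beside 4171 of all 13931 genes. Most of the 8 encode subunits of the HOPS tether that joins autophagosomes to lysosomes and share it with endosomal traffic. Vps11, a core subunit, was at 0.43 (limma adjusted p = 0.0655) and Vps41, another subunit, at 0.33 (limma adjusted p = 0.0946), both higher in every Celf1cKO library. The other subunits were at 0.10 for Vps18, 0.07 for Vps33a, -0.12 for Vps39 and -0.16 for Vps16. Fyco1, the adaptor that carries autophagosomes along microtubules, was at -0.34 (limma adjusted p = 0.257), with overlapping groups. Epg5, a tethering factor for autophagosomes and lysosomes, had the widest spread of the list in Celf1cKO lenses (SD 0.636, n = 3), at 4.81, 5.49 and 5.57 log2 CPM in controls and 4.81, 6.03 and 5.74 in Celf1cKO lenses (0.24, SE 0.333, limma adjusted p = 0.673). Replicate 1 was the lowest library of Epg5 in both groups.

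The Celf1cKO libraries did not contribute equally to the calls. Of the 6 called genes, Celf1cKO library 1 was the nearest of the 3 to the control mean for 5 and library 2 for 1. The farthest was library 2 for 4 of the genes and library 3 for 2. Without Celf1cKO library 1, 8 of the 47 genes were called (17.0%), the 6 above among them, beside 1916 of all genes (13.8%), and 15 of the 47 had an adjusted p-value under 0.05. For the adjusted p-value alone, no count over all genes was made in that fit. Library 1 was also the Celf1cKO library with the most Celf1 RNA, the highest crystallin share and the highest sum of lens epithelium markers.

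**Figure D5:**
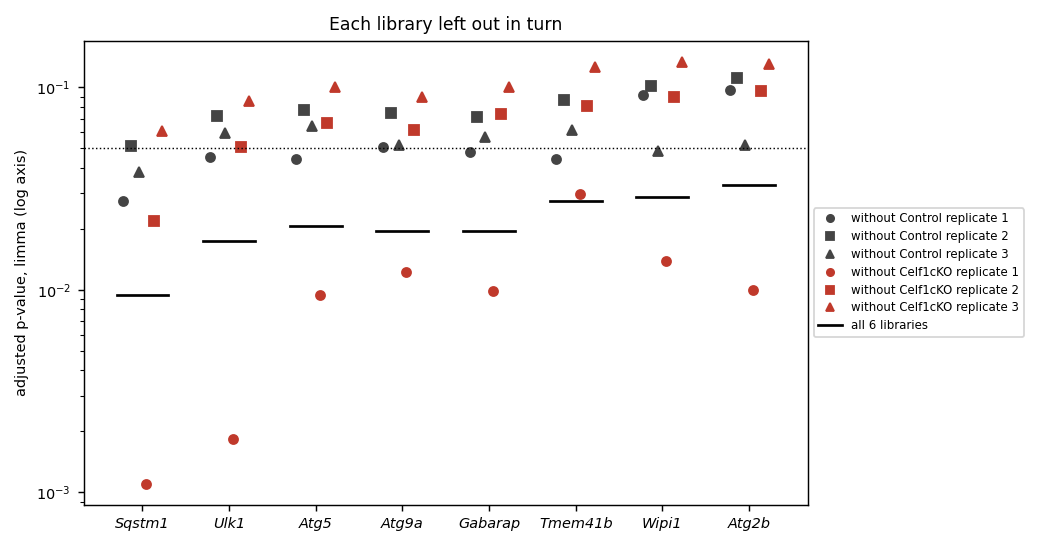
The limma adjusted p-value of the 8 genes is plotted on a log axis for the fit on all 6 libraries (black bars) and for each fit with 1 library left out (symbols), with a dotted line at 0.05. Without Celf1cKO 1 all 8 genes stay under 0.05, and without Celf1cKO 3 all 8 lie above it.

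Promoter sequences were read from RefSeq (GRCm38.p6), as 250 bases before to 50 bases after the annotated start, and 37 of the 47 genes had at least 1, with 45 promoters in all. The CLEAR element, which the transcription factors TFEB, TFE3 and MITF bind in front of many lysosomal and autophagy genes, has the E-box CACGTG as its core. On either strand, CACGTG was found in a promoter of 7 of the 37 genes (18.9%), beside 8.09% of 27025 genes. By promoter it was in 7 of the 45 (15.6%), beside 7.15% of 32851. Promoters of starts inside a gene were counted in both shares. The matches of Atg7 (window chr6:114670846-114671145, gene from chr6:114643097), Atg14 and Rubcn (window chr16:32868317-32868616) lie in such promoters. The other Rubcn promoter, at chr16:32877680-32877979 by the start of the gene, holds none. The 27025 genes, used for every promoter motif here, are all genes of the promoter source, whether or not they are in the expression table. Promoters of expressed genes alone were not used as a background. The longer TCACGTGA, which contains the same E-box, was found for 3 genes (8.11%), beside 1.13% of genes, and in 3 promoters (6.67%), beside 0.974%. Of the 7 genes, Atg5 was called, and the others (Atg14, Atg3, Atg7, Rubcn, Vps16 and Vps33a) had log2 fold-changes from -0.24 to 0.11. The 7 genes hold 9 matches in all, and 1 match of each gene is shown because it places the one called gene beside the others, with the E-box in capitals.
Atg5: gagcgcttgcCACGTGgtcttggtga
Atg14: aacaaaatccCACGTGactggccctg
Atg3: ctccttttgtCACGTGtcctgggaga
Atg7: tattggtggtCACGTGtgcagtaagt
Rubcn: cctagcacatCACGTGtacccaggtt
Vps16: gcggcctcgtCACGTGaccccgaagg
Vps33a: aacgtcccgtCACGTGacgcaggcgg

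The E-box of Atg5 starts 14 bases before the annotated start, at chr10:44268315-44268340 for the stretch shown. The promoters of 4 called genes are printed in full because they carry the largest differences, again with any E-box in capitals, and 3 of them hold none. On GRCm38.p6 they lie at chr11:50210771-50211070 (minus strand, Sqstm1), chr5:110810032-110810331 (minus strand, Ulk1), chr10:44268089-44268388 (plus strand, Atg5) and chr1:75191961-75192260 (minus strand, Atg9a).
Sqstm1: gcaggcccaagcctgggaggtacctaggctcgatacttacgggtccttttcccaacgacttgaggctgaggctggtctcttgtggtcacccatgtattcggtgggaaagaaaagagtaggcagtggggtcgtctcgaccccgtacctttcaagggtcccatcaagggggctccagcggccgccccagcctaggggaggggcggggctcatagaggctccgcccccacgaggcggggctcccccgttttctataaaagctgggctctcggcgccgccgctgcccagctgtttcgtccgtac
Ulk1: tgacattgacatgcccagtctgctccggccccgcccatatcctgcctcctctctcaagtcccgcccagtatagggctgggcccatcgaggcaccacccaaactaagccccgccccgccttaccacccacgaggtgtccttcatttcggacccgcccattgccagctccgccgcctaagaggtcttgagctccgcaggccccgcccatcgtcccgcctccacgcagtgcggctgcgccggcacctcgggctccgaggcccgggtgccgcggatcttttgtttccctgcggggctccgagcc
Atg5: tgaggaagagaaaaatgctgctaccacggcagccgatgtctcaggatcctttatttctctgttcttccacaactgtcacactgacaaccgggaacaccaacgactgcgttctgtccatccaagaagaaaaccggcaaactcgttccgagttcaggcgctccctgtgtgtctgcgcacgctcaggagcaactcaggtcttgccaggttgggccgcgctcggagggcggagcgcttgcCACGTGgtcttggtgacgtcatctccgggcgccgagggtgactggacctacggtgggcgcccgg
Atg9a: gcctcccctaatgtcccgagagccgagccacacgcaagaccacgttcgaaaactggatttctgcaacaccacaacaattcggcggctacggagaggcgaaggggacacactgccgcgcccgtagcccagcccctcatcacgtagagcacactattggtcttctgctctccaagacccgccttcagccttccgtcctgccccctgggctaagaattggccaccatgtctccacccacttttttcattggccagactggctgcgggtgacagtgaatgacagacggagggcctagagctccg

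Other motifs were searched on both strands of the same windows. The core of the antioxidant response element, TGACNNNGC, was found for 5 of the 37 genes (13.5%), beside 14.0% of genes. It was in 7 of the 45 promoters (15.6%), beside 12.4%, and in no promoter of the 6 called genes. The CEBP-ATF response element TTGCATCA and the FOXO element TGTTTAC were found in none of the 45 promoters, beside 1.03% and 4.05% of genes and 0.895% and 3.65% of promoters. A match is a description of letters in a short window, and the lack of one says only that these letters are not in it.

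The 3′ UTRs were searched for TGTTTGT, one of the stretches rich in G and U that CELF1 is known to bind. A single transcript per gene was searched, the one with the longest coding sequence, so 3′ UTRs of other transcripts were not covered. It was found in 14 of 47 core autophagy genes (29.8%), beside 26.7% of 13098 genes, and in the last 300 bases of 5 of the 45 that are at least that long (11.1%), beside 8.84%. Per kb of 3′ UTR the order was the other way, with 0.256 matches in the core autophagy genes, whose median length was 1179 bases, and 0.318 in all genes, with a median of 989. Of the 6 called genes, Ulk1, Atg5, Atg2b, Tmem41b and Atg9a hold no match in the transcript searched. For Ulk1 that 3′ UTR is only 78 bases long, so the lack of a match there says little. Sqstm1 holds 1 match, at base 535 of its 638-base 3′ UTR, shown with its flanks and with the match in capitals.
Sqstm1 3′ UTR: actctttagTGTTTGTgtctaatgt

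Other genes of the autophagy pathway, taken from a list of 56 regulators and factors of which 52 were in the table, held 10 calls (19.2%), 6 elevated and 4 reduced, beside 7.39% of all genes and 9.68% of those over the level threshold. The adjusted p-value was passed by 14 (26.9%), beside 11.9% of all genes and 1550 of the 10640 over the level threshold. Calls were found in both directions within several groups. The largest difference was that of Trp53inp1, which encodes a p53-induced protein that binds ATG8 proteins, at 3.86, 2.94 and 2.59 log2 CPM in controls and 5.58, 6.08 and 5.51 in Celf1cKO lenses (2.59, SE 0.322, limma adjusted p = 0.00940). Its relative Trp53inp2, which carries ATG8 proteins out of the nucleus, was elevated at 0.84 (limma adjusted p = 0.0193). Among the sestrins, which restrain mTORC1 when amino acids or redox balance fail, Sesn3 was elevated at 0.97 (limma adjusted p = 0.0252) and Sesn1 was reduced at -1.10 (limma adjusted p = 0.0297), and Sesn2 was at 0.32 without a call. In all, 4 of the 7 stress-linked regulators were called, a group too small to set against the 7.39% of all genes. Ddit4, an mTORC1 inhibitor of the same group, had an adjusted p of 0.0864 by limma and of 0.0214 with the replicate block, which makes it a call.

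The nutrient-sensing genes upstream of ULK1 also held calls of either sign. Rheb, the GTPase that activates mTORC1, was elevated at 0.61 (limma adjusted p = 0.0196), and Rptor, the mTORC1 subunit that holds its substrates, was reduced at -0.59 (limma adjusted p = 0.0400). Of the Rag GTPases that bring mTORC1 to the lysosome, Rragd was elevated at 0.68 (limma adjusted p = 0.0275) and Rragc was reduced at -0.62 (limma adjusted p = 0.0107). Rragc read 6.31, 6.38 and 6.18 log2 CPM in controls and 5.69, 5.67 and 5.66 in Celf1cKO lenses, so its Celf1cKO libraries were nearly level. Of 12 Rag GTPase and Ragulator genes 5 passed the adjusted p-value, 4 higher and 1 lower. Beside them stand 11.9% of all genes and 1550 of the 10640 over the level threshold. In every Celf1cKO library 7 of the 12 were higher and 1 was lower, beside 19.5% and 17.0% of all genes. None of 7 AMPK and LKB1 genes passed, although 2 of these had an unadjusted limma p-value under 0.05. Prkag2, a regulatory subunit of AMPK, had an adjusted p of 0.0370 by limma with the replicate block and of 0.173 without it. Mitf, the only called gene of 6 transcription factors of autophagy genes, was reduced at -0.72 (limma adjusted p = 0.0225). Snap29, a SNARE protein of autophagosome fusion, was elevated at 0.83 (limma adjusted p = 0.0269) and was the only call among 11 other factors. With libraries scaled by total reads, 15 pathway genes were called elevated and 1 reduced, beside 1663 and 204 of all 13931 genes. No pathway gene was called without Control 2 or without Celf1cKO 3.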

How the data were processed

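Total RNA of 6 pools of P0 lenses was sequenced, 3 control and 3 Celf1cKO by their labels. The authors aligned trimmed reads to GRCm38.p6 with STAR (2.7.8a), counted uniquely mapped reads per gene with featureCounts (2.0.0), removed genes of low expression, normalised with edgeR and deposited log2 CPM values for each library. The libraries are described as strand-specific, and the strand setting of the counting is not given in the sources used here. The authors' log2 group means and fold-changes, and their deposited p-value, FDR and F score columns, hold their own comparison and were not used. Their average log2 CPM served as the expression threshold.

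Group differences were tested two-sided with limma (3.58.1, R 4.3.3) on the deposited values, with a variance trend and Benjamini-Hochberg adjustment over all 13931 genes. The prior degrees of freedom were 3.40. Reads per gene were recovered from the even spacing of low values, 100% came out whole within 0.1 reads, and depths are their totals. The error used throughout is the spread between libraries, so no counting interval is given. Levels per length used the union of exons in GENCODE M21 (GRCm38), in which all 47 genes were found. Python 3.11.15, pandas 2.3.3 and matplotlib 3.10.9 were used.

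The gene list, its groups by role, the pathway and marker lists and the tests were chosen with earlier results of these data known. Every member is given with its log2 fold-change, and the values of all libraries are given for members that were called, had an adjusted p-value under 0.05, did not overlap between groups with a log2 fold-change over 0.58, or belong to the ATG8 family, and for Epg5, which was chosen after its values were seen. Pathway genes are named if called, and Ddit4, Sesn2 and Prkag2 were added after their values were seen. Each library is a pool of lenses that the methods of the study call a biological replicate, and p-values measure the spread between these pools. The replicate numbers that the labels share were checked for pairing, and deviations from the group means correlated between same-numbered libraries at 0.302, 0.417 and 0.348 over 10640 genes, so a fit with the replicate block was run beside the fit without it. The other alternatives were no variance trend, robust empirical Bayes, log2(CPM + 1), quantile normalization, median centring, scaling by total reads or without the crystallin genes, voom on the recovered reads, a filter on level, other thresholds and each library left out. Map1lc3b and 4 listed pathway genes were not analysed here.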

Additional observations from a re-analysis of the deposited data

How the results depend on the processing

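With 3 libraries a group, the calls rested on few degrees of freedom, and the cause of the changes below was not tested. Without a variance trend 421 genes of the table, 1 member (Sqstm1) and 2 pathway genes were called, 1 member had an adjusted p-value under 0.05, and Celf1 was at -1.60 with an adjusted p of 0.0693 by limma. With libraries scaled by total reads 1867 genes (1663 elevated and 204 reduced, beside 664 and 366), 10 members and 16 pathway genes were called, 18 members had an adjusted p-value under 0.05, and the median of the members was 0.312, beside 0.229 for all genes over the expression threshold. At an adjusted p-value under 0.01, 113 genes, 1 member and 1 pathway gene were called, and without the threshold in size 1550 genes. When single libraries were left out the calls ran from 1 to 1916 genes, from 0 to 8 members and from 0 to 15 pathway genes, the members with an adjusted p-value under 0.05 from 0 to 15, the median of the members from 0.0178 to 0.188 and the log2 fold-change of Celf1 from -1.99 to -1.36. Celf1 passed the adjusted p-value only without Celf1cKO 1 (0.00250 by limma), beside 0.0560 to 0.108 in the other 5 fits. The lowest counts were those without Control 2 and without Celf1cKO 3.

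With the replicate block, 6 members and 11 pathway genes were called. An adjusted p-value under 0.05 was reached by 9 members, beside 2123 of all 13931 genes and 1980 of the 10640 over the expression threshold. The 6 called members were the same, Atg12 was added to those under the adjusted p-value and Ddit4 to the calls. Of the pathway genes, Ddit4 and Prkag2 were added under the adjusted p-value, and the block changed no other call on these lists. The count over the table was 1279 with the block and 1030 without, of which 993 were shared.

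Some members that were not called changed sign. With scaling by total reads the log2 fold-change was 0.17 for Gabarapl1, 0.13 for Gabarapl2, 0.062 for Atg13, 0.033 for Becn1, 0.11 for Wipi2, 0.045 for Atg3, 0.091 for Atg7, 0.021 for Nbr1, 0.18 for Optn, 0.21 for Wdfy3, 0.066 for Vps16 and 0.10 for Vps39. Centring on the median gave -0.013 for Atg4b, -0.0098 for Atg4c and -0.00024 for Atg4d, scaling without the crystallin genes gave -0.0097 for Atg4b and -0.0059 for Atg4c, and quantile normalization gave -0.040 for Atg4b. With each library left out the range of the log2 fold-change was -0.057 to 0.14 for Pik3r4, -0.10 to 0.23 for Atg14, -0.042 to 0.30 for Atg2a, -0.21 to 0.027 for Wipi2, -0.025 to 0.034 for Atg4b, -0.16 to 0.11 for Atg4c, -0.072 to 0.091 for Atg4d, -0.20 to 0.086 for Optn, -0.037 to 0.016 for Wdfy3, -0.016 to 0.59 for Epg5, -0.046 to 0.23 for Vps18 and -0.021 to 0.20 for Vps33a. The 6 called members kept their direction in every alternative, and voom, robust empirical Bayes, centring, log2(CPM + 1) and the filter on level left all 6 called, while quantile normalization ended the call of Atg2b (0.57).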
